A study of Rattus norvegicus with 12 samples.

Results

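Fatty acid hydroxylases of the Cyp4a and Cyp4f subfamilies and the related Cyp2j subfamily were followed in the liver of obese Zucker rats fed a fungal supplement. The members were 10 named rat genes, and a member was measured where a transcript cluster (the array's unit for a gene) had that gene as its single annotated symbol. This held for 8 of the 10 genes, out of 18166 genes tested: Cyp4a1 and Cyp4a8, then Cyp4f1, Cyp4f4, Cyp4f5 and Cyp4f6, and lastly Cyp2j3 and Cyp2j4. Cyp4a2 and Cyp4a3 share 1 cluster that carries both symbols, so neither has a value of its own. The genes were named with earlier results of these data known. Where a gene has several rows, the row is selected on its mean log2 signal over all 12 arrays, without regard to diet, but each of the 8 genes had only 1 row.

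The PSC group was 6 male rats, homozygous for the fa allele of the leptin receptor gene (Crl:ZUC-Leprfa), fed a diet with 5% PSC. The control group was 6 rats of that strain, sex and genotype on an unsupplemented diet of comparable energy and nutrients. The series title names PSC's source as an oyster mushroom produced biotechnologically and asks for its effects on the liver. The diets were given for 4 weeks to rats aged 5 to 6 weeks when feeding began, killing was on day 29, and the profiled rats were drawn from feeding groups of 12. All rats of both groups lack normal leptin signalling, and no lean rats are among these samples. Total liver RNA of 1 rat was hybridised to each Affymetrix Rat Gene 2.0 ST array.

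The Cyp4a and Cyp4f enzymes are membrane-bound cytochrome P450s that put a hydroxyl group on the far (omega) end of a fatty acid chain, which other enzymes then oxidise to a dicarboxylic acid for shortening in peroxisomes. Rat Cyp4a genes are classic targets of PPARa, the nuclear receptor that senses fatty acids and fibrate drugs in liver. The Cyp4f enzymes are best known for inactivating leukotriene B4, an inflammatory lipid, and the Cyp2j enzymes for turning arachidonic acid into epoxides.

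The sequences just upstream of 3 of these genes are given because they hold the motif matches found among the members and show how alike Cyp4a2 and Cyp4a3 are upstream. They are RefSeq sequences of the rat assembly GRCr8, written 5′ to 3′ on the gene's strand and ending before the gene's annotated start. Cyp4f5 is at chr7:12194387-12194566 on the plus strand, Cyp4a2 at chr5:134170909-134171158 and Cyp4a3 at chr5:134352269-134352486, both on the minus strand.
Cyp4f5: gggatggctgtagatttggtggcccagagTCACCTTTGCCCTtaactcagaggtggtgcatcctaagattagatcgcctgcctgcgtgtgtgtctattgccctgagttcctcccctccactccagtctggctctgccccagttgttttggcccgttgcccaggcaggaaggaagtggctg
Cyp4a2: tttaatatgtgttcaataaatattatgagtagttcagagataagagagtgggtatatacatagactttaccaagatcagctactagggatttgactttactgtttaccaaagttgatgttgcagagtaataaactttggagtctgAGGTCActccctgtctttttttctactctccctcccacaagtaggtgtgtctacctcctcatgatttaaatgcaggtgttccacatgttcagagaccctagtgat
Cyp4a3: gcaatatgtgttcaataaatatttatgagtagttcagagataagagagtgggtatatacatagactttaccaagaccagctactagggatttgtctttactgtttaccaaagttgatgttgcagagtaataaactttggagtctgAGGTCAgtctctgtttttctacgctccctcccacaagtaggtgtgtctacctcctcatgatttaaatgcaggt
In Cyp4f5 the capitals mark a match, with 2 mismatches, on the opposite strand to a direct repeat of 2 AGGTCA copies with any 1 base between them, the kind of element that PPARa and its partner RXR bind. In Cyp4a2 and Cyp4a3 they mark a single AGGTCA, 105 bases before the start point of the RefSeq promoter entry in both. That point is where the compared window of 250 bases ends. For Cyp4a3 only 218 bases of the window come before the annotated gene start, so its match lies nearer to that start.

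Windows of 250 bases before the start point of each RefSeq promoter entry were compared. Cyp4a2 and Cyp4a3 were 92.5% identical in a global alignment. The other 27 pairs among the 8 members with a promoter entry were 44.4% to 59.5% identical. Some windows ran past the gene's annotated start, with 218 bases before it for Cyp4a3, 180 for Cyp4f5, 73 for Cyp2j4 and 72 for Cyp2j3. The window of Cyp4f1 lay wholly past its annotated start. So neither the identities nor the motif counts are of upstream bases alone. The repeat with up to 2 mismatches, on either strand, was in 1 of these 8 windows and in 3.1% of all 33469 promoter windows of the table. The exact single AGGTCA was in 2 of the 8 and in 14.1% of all windows, and a match to the longer repeat may contain it. These matches are descriptions of letters. Cyp4a1 and Cyp4f4 had no entry in the table.

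The PSC diet went with changes of both signs among the members. Of the 8 genes, 1 rose (Cyp4f4) and 2 fell (Cyp4f5 and Cyp2j4) at an adjusted p below 0.05 in limma's test over all genes, while 5 did not pass. Among all genes tested 2.6% passed, 0.716% higher and 1.89% lower. At an unadjusted p below 0.05, 3 members were higher and 4 lower, against 9.02% and 10.1% of all genes (19.1% either way). After median centring of the arrays 82 of all genes were called higher and 584 lower (12.3% higher), against 130 and 343 (27.5% higher) in the deposited values, and Cyp4f4 passed in both. Cyp4f4 was 1.38-fold higher, Cyp2j4 1.38-fold lower and Cyp4f5 1.33-fold lower in PSC-fed rats. Because whole liver was measured, less RNA per cell and fewer cells of a type cannot be told apart.

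The arrays had median log2 signals of 4.71 to 4.85 and correlated at 0.987 to 0.995, and the number of arrays limits the precision. Rats were housed 2 to a cage, and the cages of the profiled rats are unknown here. PSC replicates 2 and 5 had the highest medians, 4.85 and 4.82. Without both of these arrays 3 members passed, Cyp4f4, Cyp2j4 and Cyp4a1. Of 8 measured hepatocyte markers 0 changed (limma; 0 also at unadjusted p below 0.05), and their summed signal was 35406 to 37674 on PSC arrays and 35234 to 36417 on control arrays. Markers of hepatocyte zones had 0 of 8 periportal and 0 of 8 pericentral genes past the adjusted threshold. At unadjusted p below 0.05, 4 of the periportal genes were higher (median log2 difference 0.205, with 7 of 8 positive), and 2 of the pericentral genes were higher and 1 lower (median 0.046). Periportal sums were 9219 to 10567 on PSC arrays and 7960 to 9536 on control arrays, and pericentral sums were 3741 to 4707 on PSC arrays and 2955 to 4067 on control arrays. Of 10 stellate cell markers 3 fell and 7 were lower at unadjusted p below 0.05 (median -0.288, with 9 of 10 negative), with sums of 1587 to 2194 on PSC arrays and 1960 to 2324 on control arrays. Of 10 macrophage markers 1 rose and 6 were higher at unadjusted p below 0.05 (median 0.402, with 9 of 10 positive), with sums of 1574 to 2039 on PSC arrays and 888 to 1704 on control arrays. Of 7 lymphocyte markers 1 rose (median 0.065, with 5 of 7 positive). Of 6 bile duct markers 1 fell (median -0.026, with 3 of 6 positive). Of 6 kidney markers 1 fell (median 0.027, with 4 of 6 positive), and of 6 adipocyte markers 1 fell (median 0.040, with 5 of 6 positive). Among all genes tested 2.6% passed and 19.1% were at unadjusted p below 0.05 (limma). The part of these cells in the members' differences was not tested.

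**Figure D1:**
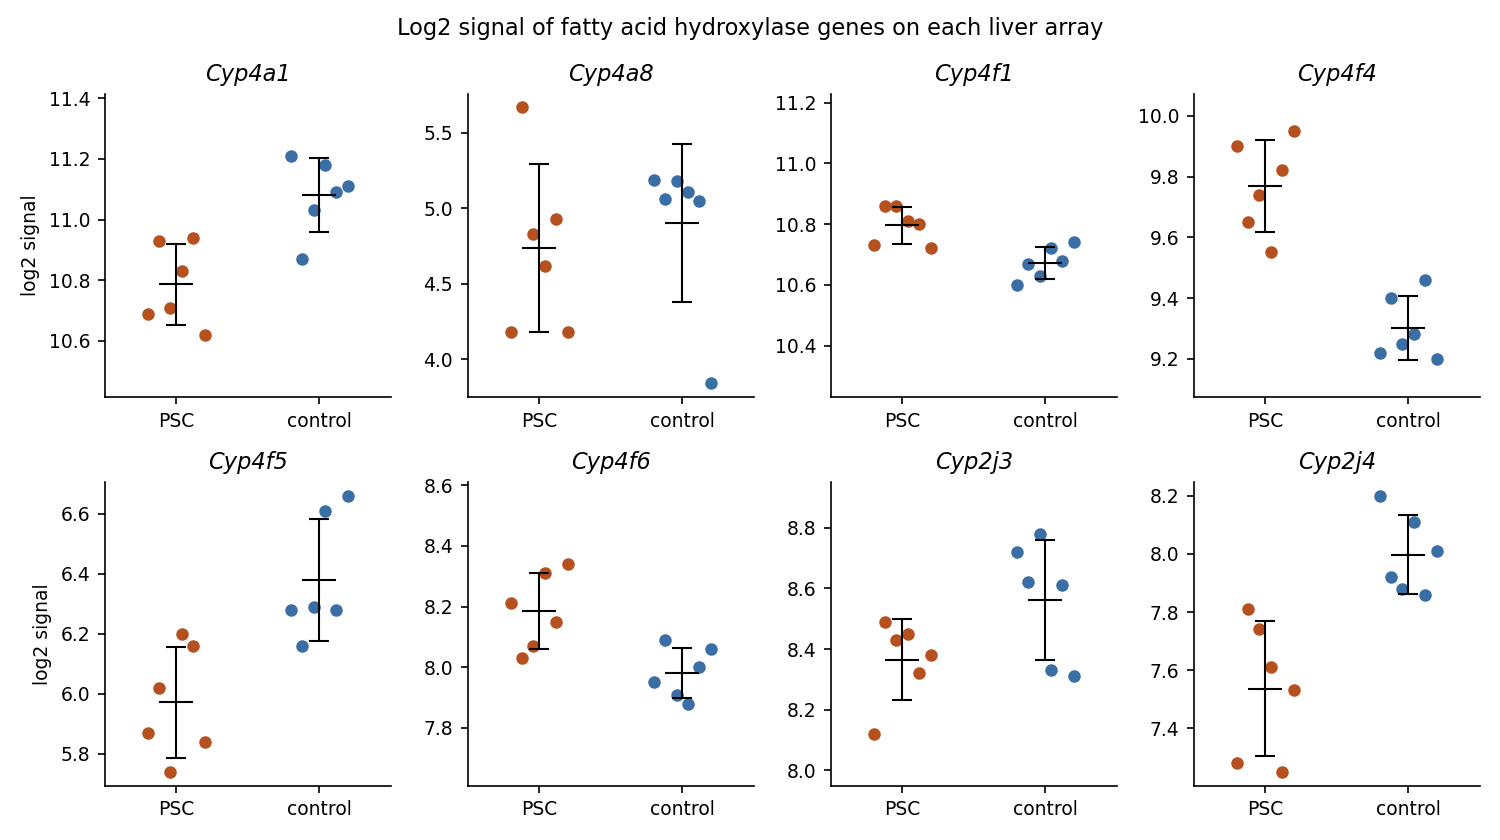
Log2 signal of the 8 members (vertical axes) on the 6 PSC and 6 control arrays (points), with the mean and SD of each diet as bars. Every vertical axis spans at least 1 log2 unit and none starts at 0. The diets do not overlap for Cyp4f4, which is higher in PSC, and for Cyp2j4, which is lower.

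Cyp4f4, an omega-hydroxylase of leukotriene B4 and arachidonic acid in the rat, had the firmest difference. Its log2 signal (transcript cluster 17826812) was 9.90, 9.65, 9.74, 9.55, 9.82 and 9.95 on PSC arrays 1 to 6, against 9.22, 9.40, 9.25, 9.28, 9.46 and 9.20 on control arrays 1 to 6. Every PSC array lay above every control array. The means were 9.77 ± 0.15 in PSC-fed rats and 9.30 ± 0.10 in controls (SD, n = 6 each), a log2 difference of 0.47 (SE 0.08, 95% interval 0.30 to 0.63, limma adjusted p = 0.00816). It was rank 44 by p among all genes tested.

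Cyp4f5, a family member that also acts on leukotriene B4 in the rat, moved the other way. Its log2 signal (cluster 17826761) was 5.87, 6.02, 5.74, 6.20, 6.16 and 5.84 on PSC arrays 1 to 6, against 6.28, 6.16, 6.29, 6.61, 6.28 and 6.66 on control arrays 1 to 6. The diets met at the edge, where PSC replicates 4 and 5 reached the lowest control. The means were 5.97 ± 0.19 in PSC-fed rats and 6.38 ± 0.20 in controls (SD, n = 6 each), a log2 difference of -0.41 (SE 0.10, 95% interval -0.63 to -0.19, limma adjusted p = 0.0479). This call rested on the full set of arrays: it held without control replicate 2 (limma adjusted p = 0.0349) or PSC replicate 4 (0.0288), and was lost without any of the other 10 arrays, at adjusted p up to 0.107.

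Cyp4f1 and Cyp4f6, the other 2 listed members of this subfamily, had positive differences that did not pass. Cyp4f1, which hydroxylates leukotriene B4 and arachidonic acid in the rat, had 10.73, 10.86, 10.86, 10.81, 10.80 and 10.72 on PSC arrays and 10.60, 10.67, 10.63, 10.72, 10.68 and 10.74 on control arrays. All 6 PSC arrays were above the control mean and 4 were above every control. The log2 difference was 0.12 (95% interval 0.01 to 0.23, limma adjusted p = 0.212).

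Cyp4f6 had log2 signals of 8.21, 8.03, 8.07, 8.31, 8.15 and 8.34 on PSC arrays, against 7.95, 8.09, 7.91, 7.88, 8.00 and 8.06 on control arrays. Again all 6 PSC arrays exceeded the control mean and 4 exceeded every control. Its log2 difference was 0.20 (95% interval 0.06 to 0.35, limma adjusted p = 0.116).

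**Figure D2:**
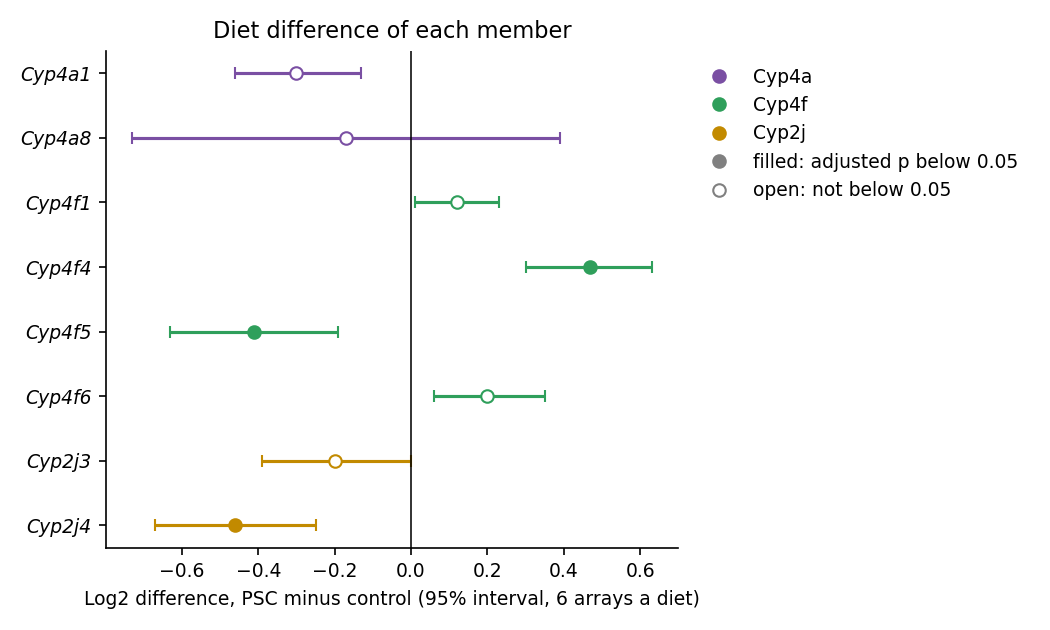
Log2 difference between PSC and control (horizontal axis) for each member, with its 95% interval and a colour for each subfamily. Filled points passed an adjusted p below 0.05: Cyp4f4 at 0.47, Cyp4f5 at -0.41 and Cyp2j4 at -0.46.

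Cyp2j4, a P450 of rat liver and intestine that acts on arachidonic acid, fell. Its log2 signal (cluster 17808722) was 7.28, 7.81, 7.74, 7.61, 7.25 and 7.53 on PSC arrays 1 to 6, against 8.20, 7.92, 7.88, 8.11, 7.86 and 8.01 on control arrays 1 to 6. Every PSC array was below every control array, with PSC replicates 1 and 5 lowest. The means were 7.54 ± 0.23 in PSC-fed rats and 8.00 ± 0.14 in controls (SD, n = 6 each), a log2 difference of -0.46 (SE 0.10, 95% interval -0.67 to -0.25, limma adjusted p = 0.0292). The call was lost without control replicate 1 (limma adjusted p = 0.0731), 4 (0.068) or 6 (0.0609), and without PSC replicate 1 (0.0605), 5 (0.06) or 6 (0.0632).

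Cyp2j3, an epoxygenase of rat heart and liver, had a smaller value of the same sign that did not pass. It measured 8.12, 8.49, 8.43, 8.45, 8.32 and 8.38 on PSC arrays, against 8.72, 8.62, 8.78, 8.33, 8.61 and 8.31 on control arrays. The 2 lowest controls, replicates 4 and 6, lay within the range of the PSC arrays, and the other 4 were above it. The log2 difference was -0.20 (SE 0.09, limma adjusted p = 0.257). Cyp4f4 and Cyp2j4 made 2 members without overlap between the diets, where 2.19% of all genes had none.

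Cyp4a1, the fatty acid omega-hydroxylase for which fibrate induction in rat liver is best known, lay at the threshold. Its log2 signal (cluster 17801079) was 10.69, 10.93, 10.71, 10.83, 10.94 and 10.62 on PSC arrays 1 to 6, against 11.21, 10.87, 11.03, 11.18, 11.09 and 11.11 on control arrays 1 to 6. Control replicate 2 was the single control within the range of the PSC arrays. The means were 10.79 ± 0.13 in PSC-fed rats and 11.08 ± 0.12 in controls (SD, n = 6 each), a log2 difference of -0.30 (SE 0.07, 95% interval -0.46 to -0.13, limma adjusted p = 0.0507). It passed without control replicate 2 (limma adjusted p = 0.0265), without PSC replicate 2 (0.0448) and without PSC replicates 2 and 5 together (0.0409), and did not pass without any of the other 10 arrays, at adjusted p up to 0.116.

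Cyp4a8, a further rat Cyp4a gene, was too variable for a call. It measured 4.18, 5.67, 4.83, 4.62, 4.93 and 4.18 on PSC arrays, against 5.19, 5.06, 5.18, 5.11, 5.05 and 3.84 on control arrays. The highest value of all was on a PSC array and the lowest on a control array. The log2 difference of -0.17 had a 95% interval from -0.73 to 0.39 (limma adjusted p = 0.756).

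The cluster that names both Cyp4a2 and Cyp4a3, the near-identical pair of rat Cyp4a genes, did not pass. It measured 11.31, 11.55, 11.22, 11.42, 11.16 and 11.49 on PSC arrays, against 11.53, 11.53, 11.53, 11.41, 11.43 and 11.29 on control arrays. The diets overlapped nearly throughout. Its log2 difference was -0.095 (95% interval -0.26 to 0.07), with an adjusted p of 0.573 in a limma fit of all 30347 clusters, where 0.837% passed. The array cannot say how the pair share that signal, and probes of the other members may also bind transcripts of close relatives.

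**Figure D3:**
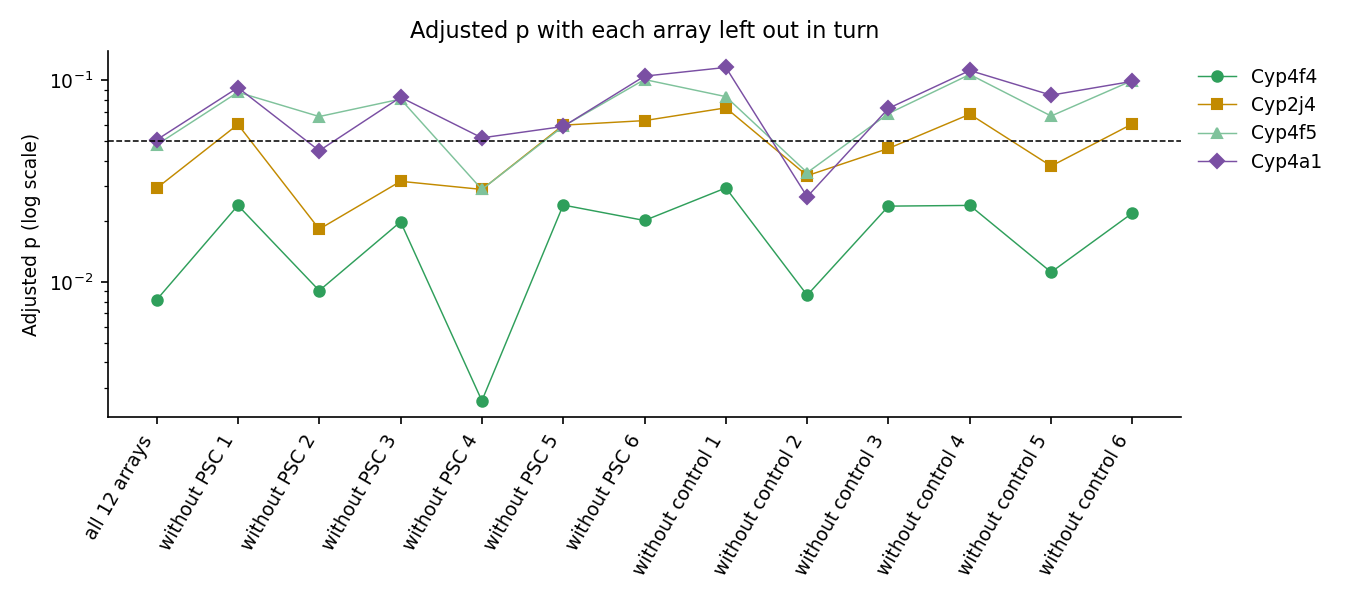
Adjusted p (vertical axis, log scale) of Cyp4f4, Cyp2j4, Cyp4f5 and Cyp4a1 in the limma fit of all 12 arrays and with each array left out in turn, and the threshold of 0.05 as a dashed line. Cyp4f4 stays below the line in every fit, Cyp2j4 in 6 of the 12 fits with an array left out, and Cyp4f5 and Cyp4a1 in 2 of 12.

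Set side by side, the subfamilies had different values. The median log2 difference was -0.233 over the 2 measured Cyp4a members, 0.163 over the 4 Cyp4f members and -0.328 over the 2 Cyp2j members. Over all genes tested it was 0.013. Other measured genes of these subfamilies are left out: Cyp4f17 (-0.05), Cyp4f18 (0.13), Cyp4f40 (0.11), Cyp2j10 (-0.10) and Cyp2j16 (0.06). The medians are thus those of the listed members and not of whole subfamilies. The Cyp4a value is that of Cyp4a1 and the variable Cyp4a8, and leaves out the shared cluster of Cyp4a2 and Cyp4a3, at -0.095. Among the listed members only Cyp4f had both signs, 3 positive and 1 negative. With Cyp2j16, at 0.06, the measured Cyp2j genes had both signs too. Differences between subfamilies were not tested, since their members were chosen with results known.

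The mean of the log2 signals of a subfamily's listed members, each gene centred over the 12 arrays, gives their course array by array. For Cyp2j it was -0.42, 0.04, -0.03, -0.08, -0.33 and -0.16 on PSC arrays, against 0.35, 0.15, 0.21, 0.10, 0.12 and 0.05 on control arrays. The diets were only just apart, with PSC replicate 2 at 0.04 and control replicate 6 at 0.05. Of the 2 genes, Cyp2j4 had no overlap by itself and Cyp2j3 had overlap. For Cyp4a it ran from -0.48 to 0.42 on PSC arrays and from -0.40 to 0.32 on control arrays, where Cyp4a8 gave most of the spread. For Cyp4f it averaged 0.05 ± 0.05 on PSC arrays and -0.05 ± 0.06 on control arrays (SD, n = 6 each), with the values of Cyp4f4 and Cyp4f5 opposing each other.

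The measured members of each subfamily lie among related genes on the same chromosome. Only protein-coding Cyp4f, Cyp4a and Cyp2j genes, Cyp4b1 and Cyp4x1 were put in order, so other genes may lie between those called neighbours here. Along chromosome 7 of GRCr8 the Cyp4f genes come in the order Cyp4f39, Cyp4f17, Cyp4f5, Cyp4f37, Cyp4f40, Cyp4f4, Cyp4f1 and Cyp4f6. By this order the gene that rose and the gene that fell lie in the same array of genes, with Cyp4f37 and Cyp4f40 between them. Cyp4f17, next to Cyp4f5, had a log2 difference of -0.05 (limma adjusted p = 0.675), and Cyp4f40, next to Cyp4f4, had 0.11 (0.584). Cyp4f40 was dim, at mean log2 signals of 3.02 in PSC-fed rats and 2.91 in controls, below the array medians of 4.71 to 4.85. On chromosome 5 Cyp2j4 and Cyp2j3 are neighbours, and Cyp2j16 and Cyp2j10 beside them had 0.06 and -0.10, neither past the threshold. Cyp2j16 was dimmer than Cyp4f40, at 2.12 in PSC-fed rats and 2.06 in controls. At such signals a small difference says little. Cyp4b1, the P450 next to Cyp4a1, had 0.31 (limma adjusted p = 0.174), the sign opposite to Cyp4a1.

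**Figure D4:**
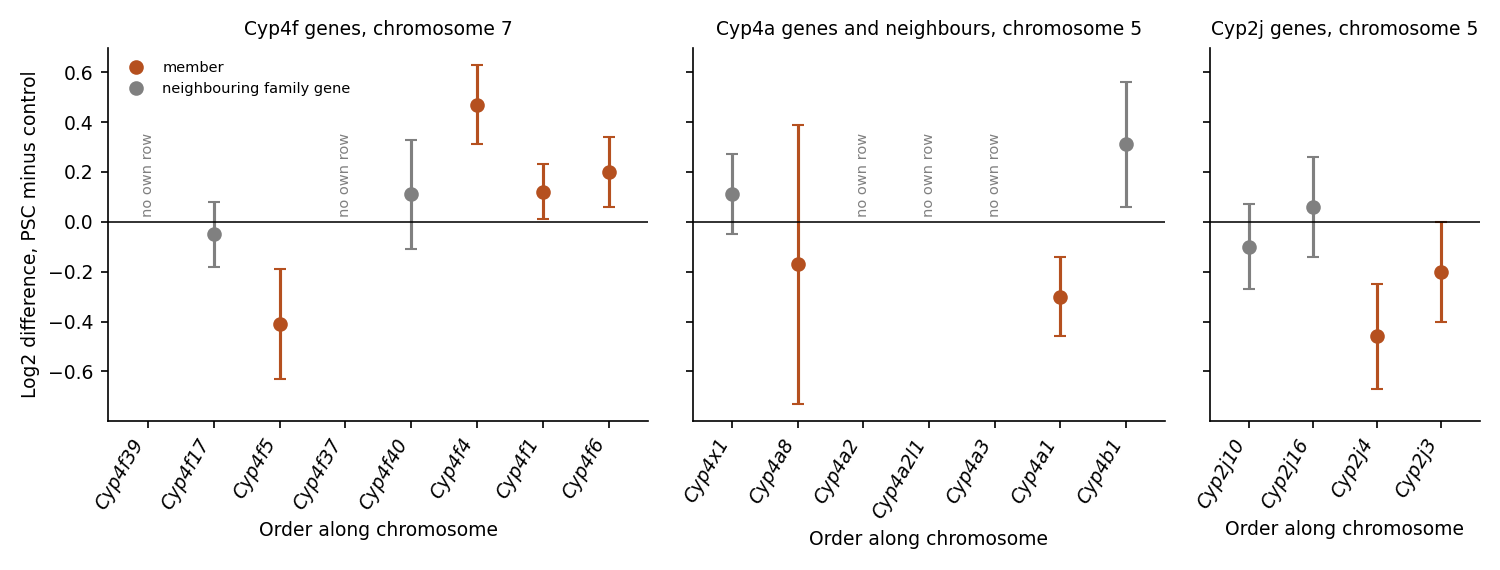
Log2 difference between PSC and control with its 95% interval (vertical axis) for family genes in their order along the chromosome (horizontal axis, order and not distance). Genes without a single-symbol cluster have no point. Cyp4f5 at -0.41 and Cyp4f4 at 0.47 stand in one row of Cyp4f genes.

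Beyond the members, other P450s that oxidise fatty acids gave no call. Of 13 measured genes of that list 0 passed (limma; 1 at unadjusted p below 0.05) and the median was 0.062. The smallest p was that of Cyp4b1, followed by Cyp2c11, the male-specific rat P450, with a log2 difference of 0.40 (limma adjusted p = 0.352), and Cyp2e1, an ethanol- and fatty acid-oxidising P450, with 0.24 (0.388).

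The partners that serve these P450s and oxidise their products did not pass either. Of 10 electron donors and dehydrogenases 0 passed (limma; 3 at unadjusted p below 0.05), with a median of 0.020. Aldh1a1, a retinaldehyde dehydrogenase, had 10.16 ± 0.14 in PSC-fed rats and 10.53 ± 0.22 in controls (log2 signal ± SD, n = 6 each), and an adjusted p of 0.0584 in limma's test. Aldh2, of mitochondrial aldehyde oxidation, had a difference of 0.16 and Aldh3a1 one of 0.18. Por, the reductase that hands electrons to every microsomal P450, averaged 8.70 in PSC-fed rats and 8.71 in controls.

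Peroxisomal genes, which shorten the dicarboxylic acids, had 1 of 19 past the threshold and 3 at unadjusted p below 0.05 (limma). Of all genes tested 2.6% and 19.1% did so. Acox2, an oxidase of bile acid side chains, rose and lay just past the threshold (limma adjusted p = 0.0479). Its log2 signal was 9.62 ± 0.15 in PSC-fed rats and 9.25 ± 0.20 in controls (SD, n = 6 each). Ehhadh, the bifunctional enzyme of the peroxisome and a PPARa target, had a log2 difference of -0.22 (limma adjusted p = 0.0981). Abcd3, which carries dicarboxylic acids into peroxisomes, had -0.16 (limma adjusted p = 0.132). The list's median was -0.052.

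PPARa targets outside the peroxisome and the receptors themselves were mixed. Of 20 such targets 1 rose and 2 fell, with a median of -0.038, and 7 were at unadjusted p below 0.05 (limma). Among all genes tested 2.6% passed and 19.1% were at unadjusted p below 0.05. Vnn1, a pantetheinase, measured 7.41 ± 0.24 in PSC-fed rats and 8.13 ± 0.13 in controls (SD, n = 6 each, limma adjusted p = 0.0041). Acot1, a cytosolic thioesterase, had a log2 difference of -0.99 (limma adjusted p = 0.0189), and Cpt1a, the gatekeeper of mitochondrial oxidation, had 0.81 (0.0374). Acot1 was dim, at means of 3.25 in PSC-fed rats and 4.24 in controls, below the array medians of 4.71 to 4.85. Of 19 nuclear receptors and cofactors 2 rose and 1 fell, with a median of 0.003, and 6 were at unadjusted p below 0.05 (limma). Rxra, which pairs with PPARa on DNA, rose to 9.82 ± 0.03 in PSC-fed rats, against 9.50 ± 0.13 in controls (n = 6 each, limma adjusted p = 0.0186), and every PSC array was above every control. Ppara itself rose to 9.33 ± 0.18 in PSC-fed rats, against 8.92 ± 0.16 in controls (limma adjusted p = 0.0345). The coactivator Ppargc1a fell to 5.08 ± 0.21 in PSC-fed rats, against 5.56 ± 0.16 in controls (limma adjusted p = 0.0247).

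Genes that release, make or break down eicosanoids, the lipid signals on which Cyp4f and Cyp2j enzymes act, had a median of -0.035. Of these 21 genes 1 passed the threshold and 4 were at unadjusted p below 0.05 (limma), against 2.6% and 19.1% of all genes. Ptgr1, which oxidises leukotriene B4 by a route other than omega-hydroxylation, fell to 7.55 ± 0.24 in PSC-fed rats, against 8.12 ± 0.16 in controls (n = 6 each, limma adjusted p = 0.0162). All 6 PSC arrays, at 7.25 to 7.81, were below the controls, at 7.95 to 8.40. Hpgd, which inactivates prostaglandins, had -0.39 and Ptgs1, a cyclooxygenase, 0.26, neither past the threshold. Ephx2, which hydrolyses the epoxides that Cyp2j enzymes make, had a log2 difference of -0.04 (limma adjusted p = 0.801).

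**Figure D5:**
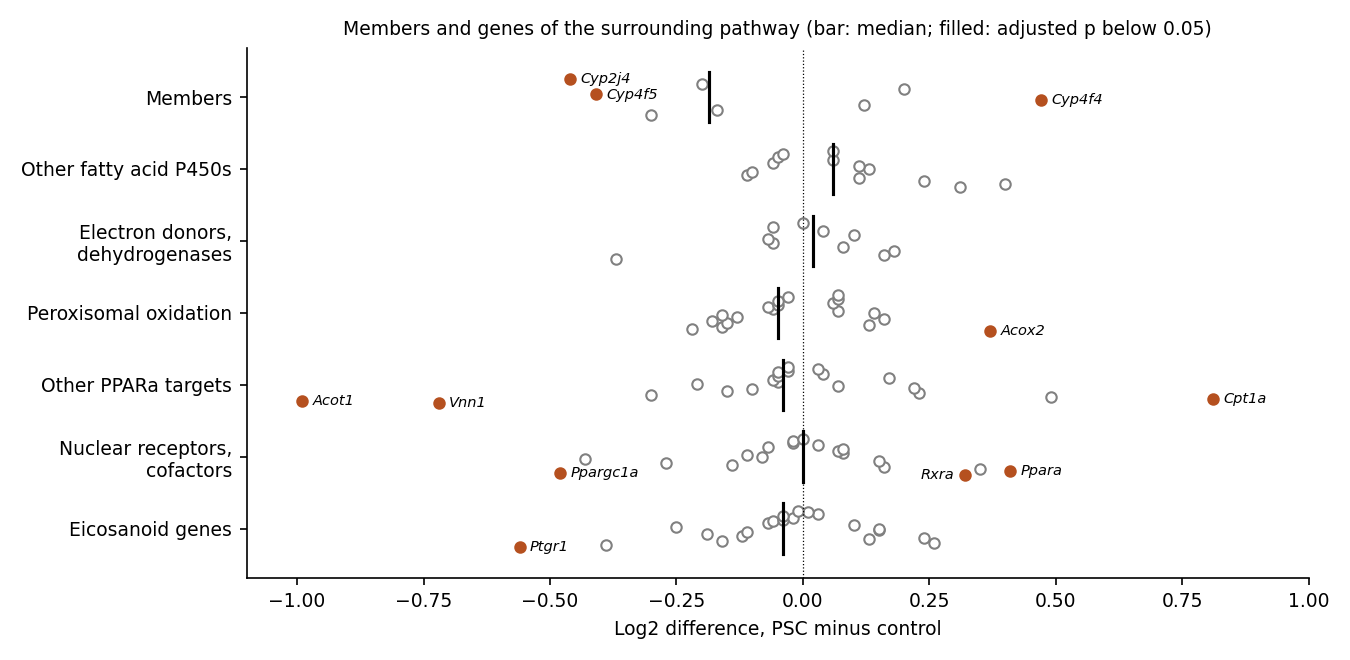
Log2 difference between PSC and control (horizontal axis) for each member and for each measured gene of 6 pathway lists (rows). Bars mark medians, and filled, named points passed an adjusted p below 0.05. The members' median is -0.183 and the medians of the lists lie between -0.052 and 0.062.

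The genes whose signal followed a member most closely within the diets came from a search of 7071 genes with a mean log2 signal of at least 6. Likeness was Pearson's r over the 12 arrays after taking each diet's mean away, given as a description. Cyp4a1 was followed by Traf2, a signalling adaptor of the TNF receptor (r = 0.97), Marchf8, a membrane ubiquitin ligase (0.92), and Qng1 (0.90). Cyp4f1 was followed by Usp21, a deubiquitinase (0.93), Fxyd2, a subunit of the sodium pump (0.93), and Pdk2, a pyruvate dehydrogenase kinase (0.92). Cyp2j3 was followed by Rabepk (0.91), the autophagy gene Becn1 (0.85) and Larp1, an RNA-binding regulator of translation (0.83). For Larp1 the r was 0.59 on PSC arrays and 0.95 on control arrays, whereas for the other 8 genes it was at least 0.83 in each diet. None of these 9 genes passed the diet test (limma), Fxyd2 having the smallest adjusted p of them, 0.18.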

How the data were processed

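The table deposited by the authors holds RMA signals on a log2 scale, from Affymetrix Expression Console per the submitters' processing notes, which name no version. RMA subtracts background, equalises the distribution of all arrays and summarises probes, so it gives no detection calls and can shrink differences of dim genes. The values were used as they stand. Of 30347 clusters, 18511 have 1 symbol, 575 several and 11261 none in the platform annotation; single-symbol clusters were kept, and the brightest over the 12 arrays stood for a gene, giving 18166 genes, of which 18059 matched RefSeq by gene number. Diets were compared with limma 3.58.1 in R 4.3.3 (statmod 1.5.0), lmFit and eBayes, two-sided, Benjamini-Hochberg adjusted over all genes, threshold 0.05. The test was checked on simulated data. Correlations between members used exact permutation, and the likeness to other genes was not tested.

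The members and lists were chosen with earlier results of these data known. The genes named are the members, the 3 genes of each pathway list with the smallest p and the 3 most like Cyp4a1, Cyp4f1 and Cyp2j3. Por, Ephx2 and the genes that neighbour members were named after their values were seen. Alternatives were other normalizations, variance priors, array weights, a replicate block, a filter on dim genes, other rows per gene, a threshold of 0.1 and leaving out each array. Leaving out PSC replicates 2 and 5 together was chosen after seeing the data. Figures were drawn with matplotlib 3.10.9.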

Additional observations from a re-analysis of the deposited data

Results flagged for a closer look

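Cyp4a8 on control replicate 6, at a log2 signal of 3.84, stood far below the other 5 control arrays, the nearest of which was at 5.05. The gap was 0.896 of the range of the controls, above Dixon's 95% critical value for 6 samples. It was the only such value among 16 sets of 6 arrays (8 members in 2 diets), and chance gives about 1 in 20. Without this array the log2 difference of Cyp4a8 was -0.38 (limma adjusted p = 0.37), against -0.17 with it. On the same array Cyp4f5 was the highest of the controls, at 6.66, and Cyp2j3 the lowest, at 8.31.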

How the results depend on the processing

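No member changed sign under any of the alternatives run, and Cyp4f4 passed in all 23 (adjusted p 0.00258 to 0.0467). Cyp2j4 passed in 15, Cyp4f5 in 8 and Cyp4a1 in 8 of 23, and Cyp4a8, Cyp4f1, Cyp4f6 and Cyp2j3 in none. The count of members past the threshold, 3, became 1 with all transcript clusters tested and 1 to 4 without single arrays, 1 being the count without control replicate 1, 4 or 6 or PSC replicate 1, 5 or 6. The count of genes changed, 473, became 254 with all clusters, 769 with the filter on dim genes (which leaves out Cyp4a8), 1140 at a threshold of 0.1 and 225 without PSC replicates 2 and 5 together. Leaving out 1 array gave 142 (control replicate 1) to 735 (PSC replicate 4), with 252, 164, 298 and 188 without control replicates 3, 4, 5 and 6 and 206, 199 and 160 without PSC replicates 1, 5 and 6. Cyp4f5 did not pass after another quantile normalization (adjusted p = 0.081) or cyclic loess (0.0657), where Cyp4a1 had 0.0454 and 0.0521. The medians over the listed members ranged from -0.411 to -0.160 for Cyp4a, 0.118 to 0.184 for Cyp4f and -0.373 to -0.278 for Cyp2j. Whether single genes outside the members passed in these alternatives was not followed. Some of these fits also hold other numbers of genes or arrays. The cause of these changes was not tested.

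Same-numbered arrays of the 2 diets were not taken as pairs. Their deviations from the diet means correlated above 0.1 in 1 of 6 pairs (replicate 5, 0.142), and at -0.220 to -0.039 in the others. Differently numbered arrays were not compared, so these values cannot show whether same-numbered arrays share a cage or a run. With the replicate number as a block, 94 genes and 1 member (Cyp4f4, adjusted p = 0.0467) passed in limma.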

Other observations

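Members were also compared with each other within each diet, so that differences between the diets do not enter. Of 56 correlations (28 pairs in 2 diets, 6 arrays each) 0 passed after Benjamini-Hochberg adjustment in a two-sided exact permutation test, and 5 had an unadjusted p below 0.05 for Pearson's r. The smallest was between Cyp2j3 and Cyp2j4 on PSC arrays, with r = 0.83 (exact p = 0.0153, adjusted 0.439) and Spearman's rho = 0.89 (exact p = 0.0333, adjusted 0.493). It was 0.82 without the 2 arrays farthest from the median of Cyp2j3. On control arrays the same pair had r = -0.25 (exact p = 0.606) and rho = -0.14 (exact p = 0.803).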
